A study of Nothobranchius furzeri with 42 samples.

Results

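Less abundant liver-enriched genes are described here in the African turquoise killifish (Nothobranchius furzeri). They were chosen by their levels in the libraries themselves. A level is given in CPM, a read count divided by the library total after a TMM factor, computed over all 42 libraries, has adjusted that total. The level of a tissue is the mean of its alendronate mean and its placebo mean. A gene belongs to the set when its liver level is at least 5 and under 200 CPM and is at least 10 times its level in each of heart, muscle, spleen and kidney. This rule held for 261 of the 25475 genes counted, or 1.02%. A further 221 genes met the same ratio at 200 CPM or more and are called the abundant liver-enriched genes below. The less abundant genes were 54.1% of the 482 liver-enriched genes.

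The fish were females of the GRZ strain, kept at 28 °C. The alendronate group had 10 µM alendronate, a bisphosphonate that acts mainly on bone-resorbing cells, added to the system water for 3 weeks from 16 weeks of age, and the placebo group had the same amount of distilled water. All fish were 19 weeks old at sampling. Livers came from 5 alendronate fish and 4 placebo fish. The same 5 alendronate fish gave heart, caudal fin muscle, spleen and kidney, and placebo fish gave 4 hearts, 4 muscles, 3 spleens and 2 kidneys. The number in a library title is read as the number of a fish, and the labels do not say how fish were spread over tanks. Treatment and tank therefore cannot be told apart, nor can treatment and the order of the libraries, whose serial numbers all run lower in the alendronate group. The p-values of fits within a tissue measure the spread between these fish. In such bulk samples, fewer cells of a type and less RNA per cell cannot be told apart.

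The liver makes most plasma proteins, including clotting and complement factors and lipid carriers. It also makes bile, stores glycogen and breaks down amino acids and foreign compounds, and in egg-laying female fish it makes yolk precursors. The transcripts for the most abundant plasma proteins fill much of a liver library. Liver-restricted enzymes, transporters and regulators are often found at lower levels. The files give Ensembl gene IDs without names, and 0 of the 25475 IDs matched the gene table at hand. No member can therefore be given a name, a function or a sequence here, the tissue labels could not be checked against marker genes, and members are described by their place in the data.

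Total counts ran from 20485992 to 35717250 per library, and from 22285977 to 33890627 in liver. Liver libraries had TMM factors of 0.364 to 0.687, against 1.60 to 1.91 in kidney, so that equal shares of counts give higher levels in liver. A member had between 59.9 and 2480 reads per liver library on average over the 9 livers, with a median of 607. All 9 livers held reads of 258 members. The other 3 members had 0 reads in at least 1 liver.

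The members spread over the whole range of levels that the rule allowed. Their median liver level was 50.5 CPM, with quartiles at 22.5 and 97.8 CPM. Of the 261, 33 stood under 10 CPM, 28 from 10 to under 20, 68 from 20 to under 50, 70 from 50 to under 100 and 62 from 100 CPM up. The highest member averaged 199.8 CPM, and the nearest gene left out above it 202.0 CPM. At the lower end the nearest member stood at 5.02 CPM and the nearest gene left out at 4.88 CPM. The smallest ratio among members was 10.15, and the nearest gene left out had 9.97.

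The median member was 25.5 times higher in liver than in its next highest tissue, against 80.7 times for the abundant liver-enriched genes. A ratio of at least 20 was reached by 155 members, at least 50 by 80, and at least 100 by 41. These ratios were used to choose the members and are given without a test. For 133 members the next highest tissue was spleen, with a median ratio of 45.5. Kidney came next for 76 members with a median ratio of 17.2, muscle for 31 with 19.1 and heart for 21 with 18.3. The spleen level is a mean that 2 high libraries carry, those of alendronate fish 1 and 3, described further down. Without them, a choice made after seeing the data, spleen was the next tissue for 91 members and kidney for 102, muscle for 42 and heart for 26.

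**Figure D1:**
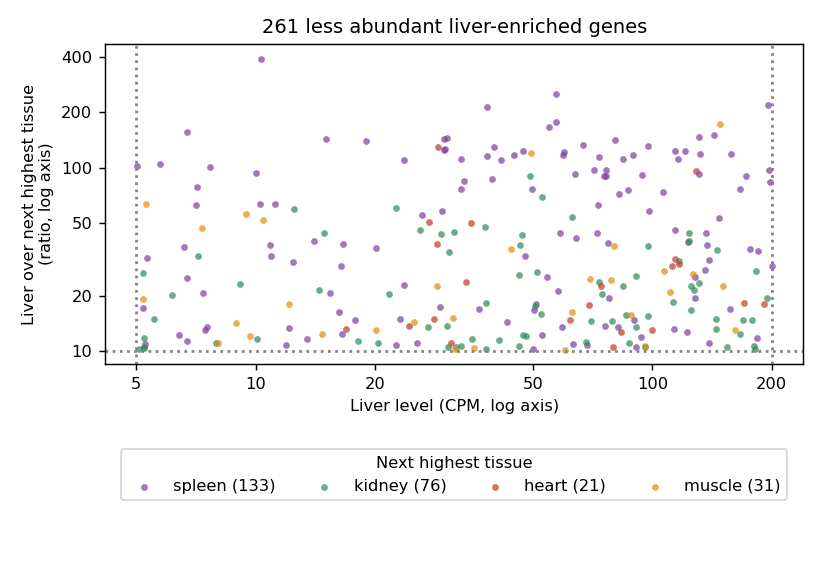
Each point is 1 of the 261 genes, with its liver level in CPM on the x axis and the ratio of that level to its next highest tissue on the y axis, both on log axes. Colours give the next highest tissue with the number of genes in brackets, and dotted lines mark the limits of 5 CPM, 200 CPM and a ratio of 10. Points lie across the whole range of levels, and the ratio reaches 393.

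The gene with the highest ratio, 393, averaged 10.3 CPM in liver and 0.0263 CPM in spleen, its next highest tissue. The lowest spleen level of any member was 0.0247 CPM, so this ratio rests on very low spleen counts and is imprecise. Liver levels of the gene were 5.62, 13.5, 7.76, 17.6 and 5.62 CPM in alendronate fish 1 to 5, against 19.6, 7.90, 7.86 and 7.21 CPM in placebo fish 1 to 4. The arms overlapped for this gene. No member was at 0 reads in all of the 33 libraries from other tissues. Of the 261, 84 had reads in every one of those libraries and 22 had none in at least 50% of them. Low counts of most members were thus present outside liver, at median levels of 0.946 CPM in spleen (0.475 CPM without those of alendronate fish 1 and 3), 0.559 CPM in kidney, 0.220 CPM in muscle and 0.179 CPM in heart.

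Alendronate was then compared with placebo in liver, with edgeR's quasi-likelihood test over all genes of the tissue. The choice of members used the mean of the alendronate and placebo means in these same livers, not their difference. A gene can enter the set through a single high liver, so shares of members at a small p are not evidence of a change. No member changed at an adjusted p of 0.05: 0 of the 260 tested passed, where 0% of all 15167 genes passed. The remaining member failed the filter on low counts and is described further down as the member held almost wholly by the liver of alendronate fish 2. DESeq2 and limma-voom also called 0 members. At an unadjusted p under 0.05 there were 19 members, or 7.31%, beside 4.37% of all genes. Of these 19, 4 had a fitted change above 0 and 15 below 0. Among all 15167 genes, 663 had such a p, 333 of them above 0 (2.20% of all genes) and 330 below (2.18%). The count of 19 members rested on single fish. Leaving out placebo fish 1 gave 6 such members, or 2.31% beside 1.65% of all genes, and leaving out placebo fish 3 gave 8, or 3.08% beside 2.18%. Leaving out placebo fish 4 gave 51, or 19.6% beside 12.3%. The share over all genes thus moved in the same direction as that of the members. One fit of all 42 libraries gave 8 members, or 3.07%, which is below the 8.14% over all genes in that fit. It had no term for the fish and pooled the spread over tissues, so its p-values do not measure the spread between livers alone. Leaving out alendronate fish 1 from the liver fit gave 23, or 8.85% beside 4.65%, with 14 above 0 and 9 below. It turned the median change of the members to 0.03, beside 0.02 over all genes. Without that fish 47.7% of members and 47.3% of all genes had a change below 0.

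The median fitted log2 change of the 260 members was -0.05, beside 0.04 over all genes tested in liver. It lay between -0.15, without placebo fish 4, and 0.04, without placebo fish 2. Fitted changes were below 0 for 145 members, or 55.8%, beside 44.6% of all genes tested. The median standard error of a member's log2 change was 0.298, beside 0.276 over all genes.

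The 2 members below placebo with the smallest p were ENSNFUG00015008223 and ENSNFUG00015019872. ENSNFUG00015008223 had 19.0, 22.3, 28.0, 18.5 and 18.7 CPM in the livers of alendronate fish 1 to 5, against 58.7, 45.3, 59.7 and 22.8 CPM in placebo fish 1 to 4. Placebo fish 4 lay among the treated livers, and the other 3 placebo livers lay above all of them. Treated livers averaged 21.3 ± 4.07 CPM (SD, n = 5) and placebo livers 46.6 ± 17.2 CPM (SD, n = 4). The fitted log2 change, -1.07 (SE 0.25), had a 95% interval from -1.62 to -0.53 and an edgeR adjusted p of 0.914. Over the 15 alternatives run, the adjusted p lay between 0.325 and 1. This gene was 23.7 times higher in liver than in heart, its next tissue, where its level was 1.44 CPM.

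ENSNFUG00015019872 had 6.34, 3.04, 6.32, 3.67 and 2.86 CPM in the livers of alendronate fish 1 to 5, against 9.98, 6.03, 10.3 and 8.74 CPM in placebo fish 1 to 4. Only placebo fish 2 fell inside the range of the treated livers. Treated livers averaged 4.45 ± 1.75 CPM (SD, n = 5) and placebo livers 8.76 ± 1.94 CPM (SD, n = 4). The fitted log2 change, -0.92 (SE 0.31), had an edgeR adjusted p of 0.914, and the adjusted p lay between 0.367 and 1 over the alternatives.

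The 2 members above placebo with the smallest p were ENSNFUG00015010183 and ENSNFUG00015025075. ENSNFUG00015010183 had 33.6, 32.5, 26.9, 41.7 and 17.7 CPM in the livers of alendronate fish 1 to 5, against 25.3, 17.8, 19.1 and 20.4 CPM in placebo fish 1 to 4. Alendronate fish 5 was the lowest liver of all, and the other 4 treated livers lay above every placebo liver. Treated livers averaged 30.5 ± 8.89 CPM (SD, n = 5) and placebo livers 20.7 ± 3.28 CPM (SD, n = 4). The fitted log2 change, 0.61 (SE 0.23), had an edgeR adjusted p of 0.914. In spleen this gene averaged 2.30 CPM, and in kidney, heart and muscle at most 0.0625 CPM.

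ENSNFUG00015025075 had 11.2, 8.23, 8.24, 12.8 and 4.09 CPM in the livers of alendronate fish 1 to 5, against 5.15, 3.74, 6.45 and 5.86 CPM in placebo fish 1 to 4. Alendronate fish 5 lay within the placebo range and the other 4 treated livers above it. Treated livers averaged 8.93 ± 3.35 CPM (SD, n = 5) and placebo livers 5.30 ± 1.17 CPM (SD, n = 4). The fitted log2 change, 0.80 (SE 0.33), had an edgeR adjusted p of 0.914. For both of these genes the adjusted p lay between 0.381 and 1 over the alternatives. All 4 genes kept the direction of their change in all 15 alternatives, and none passed the threshold in any of them. The alternatives reuse the livers in which these genes were picked for their small p. A kept direction is therefore no separate support, and standard errors and intervals are not adjusted for the choice.

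**Figure D2:**
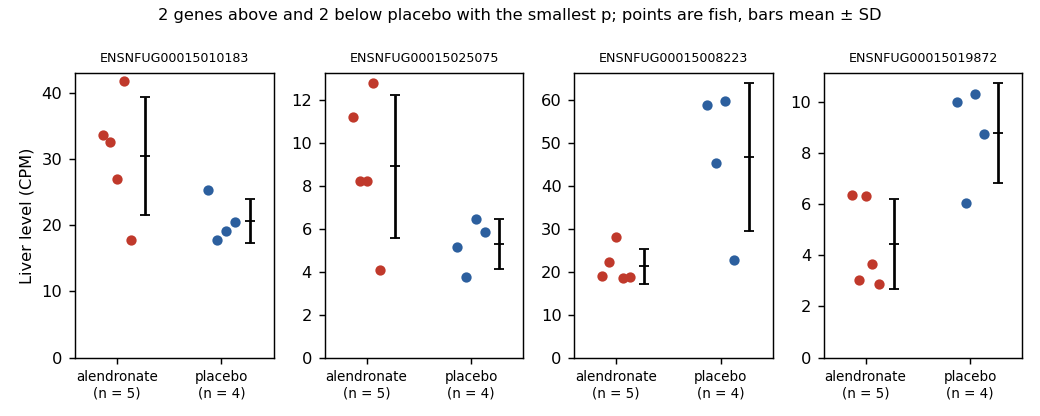
Liver levels in CPM, on axes that start at 0, of the 2 genes above and the 2 genes below placebo with the smallest p. Points are fish, with 5 on alendronate at the left and 4 on placebo at the right of each panel, and bars give mean ± SD. In every panel at least 1 liver of 1 arm lies inside the range of the other arm.

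Together the members made up a small and overlapping share of liver counts in both arms. The share was 0.839%, 0.680%, 0.808%, 0.919% and 0.734% in alendronate fish 1 to 5, against 0.708%, 0.738%, 0.710% and 0.698% in placebo fish 1 to 4. Treated livers averaged 0.796% ± 0.0928 (SD, n = 5) and placebo livers 0.713% ± 0.0174 (SD, n = 4). The treated livers were more spread and included the lowest share as well as the highest. The 95% Wilson intervals of such shares were at most 0.00363 percentage points wide to either side, which covers counting error only.

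Levels of the members differed more between fish of the same arm than levels of other genes. Spread was taken as the SD of log2(CPM + 0.5) within arms over the 9 livers. Its median was 0.513 for the 261 members and 0.406 for the abundant liver-enriched genes. It was 0.335 for the 9733 genes that lie in the same range of liver levels without meeting the ratio. An SD over 1 was found for 36 members, or 13.8%, beside 3.62% of those other genes and 6.79% of the abundant liver-enriched genes. The difference from the other genes at those levels held in each band of liver level. From 5 to under 10 CPM the median SD was 0.522 for members and 0.393 for other genes, and from 100 to under 200 CPM it was 0.463 and 0.338. These medians were not tested against each other, and the members were chosen from the same livers.

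The steadiest member stood at 147, 137, 132, 148 and 145 CPM in alendronate fish 1 to 5, against 146, 149, 150 and 164 CPM in placebo fish 1 to 4. Its SD was 0.0721. The most abundant member was steady as well, at 170, 243, 188, 176 and 203 CPM in alendronate fish 1 to 5 and 195, 214, 184 and 221 CPM in placebo fish 1 to 4.

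Much of the spread was shared by many members and belonged to particular livers. Alendronate fish 1 had the lowest liver of all 9 for 120 members, or 46%, beside 17.6% of the other genes at those levels. In that liver the median member lay 0.545 below its arm mean on the log2 scale, and the median abundant liver-enriched gene 0.512 below. The other genes at those levels lay at -0.047. Placebo fish 4 had the next lowest median, -0.346, beside -0.112 for the other genes. The other 7 livers lay between -0.0194 and 0.230. These deviations depend on scaling. With library totals alone the members of alendronate fish 1 lay at -0.0609 and the other genes at 0.429. The difference between members and other genes was -0.498 with TMM and -0.490 with totals.

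**Figure D3:**
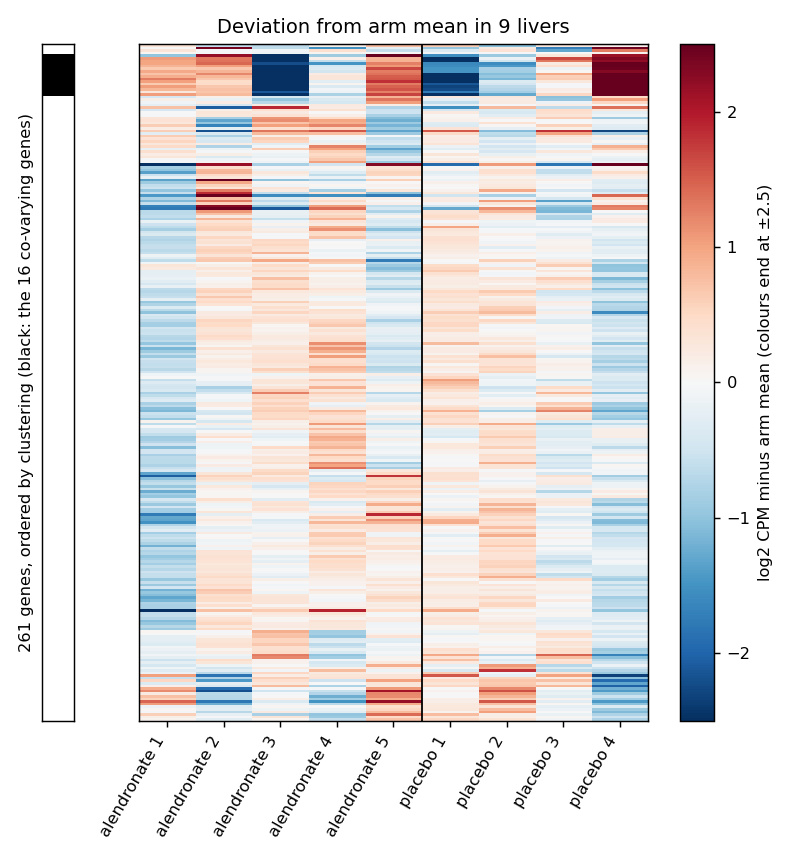
Rows are the 261 genes in the order of a clustering, and columns are the 9 livers, with alendronate fish at the left of the line and placebo fish at the right. Colours give log2(CPM + 0.5) minus the mean of the arm and end at 2.5 in both directions. The column of alendronate fish 1 is blue for most genes, and the black mark at the left shows 16 genes that moved together across livers.

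Among the 36 members with an SD over 1, 16 moved together across livers and 20 lay outside that group. Clustering of the deviations from arm means gave 9 clusters of at least 10 members, holding 213 of the 261. In the cluster with the largest median SD, 16 members had an SD over 1, and these are called the co-varying members. This group was chosen after the values were seen, and no test was made on it. The median Pearson r between pairs of its genes across the 9 livers was 0.962 and the smallest 0.751. All 16 were returned in each of 14 alternative clusterings, which differed in height, linkage, scaling or by leaving out 1 liver. Their liver levels ran from 5.20 to 184 CPM, and spleen was the next highest tissue for all 16 with every spleen counted.

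Summed over the 16 genes, the level was 1120, 1320, 65.7, 529 and 1330 CPM in the livers of alendronate fish 1 to 5, against 22.4, 118, 405 and 1200 CPM in placebo fish 1 to 4. The highest liver held 59.5 times the level of the lowest. Alendronate fish 3 and placebo fish 1 were low, alendronate fish 1, 2 and 5 and placebo fish 4 were high, and both arms held livers near each end. Treated livers averaged 873.6 ± 557 CPM (SD, n = 5) and placebo livers 435.4 ± 533 CPM (SD, n = 4). All 16 had a fitted change above 0 in the liver contrast, with a median of 0.90 and a median standard error of 1.11 on the log2 scale. None of the 16 had an unadjusted p under 0.05 in edgeR, and the smallest was 0.105. Genes that move together across livers do not count as separate observations.

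The most abundant of the co-varying members had 356, 466, 28.9, 118 and 332 CPM in alendronate fish 1 to 5, against 5.92, 38.7, 134 and 251 CPM in placebo fish 1 to 4. In placebo fish 1 it was supported by 54 reads, and in alendronate fish 1 by 5957. The least abundant had 9.75, 11.1, 0.480, 3.67 and 11.4 CPM in alendronate fish 1 to 5, against 0.110, 0.170, 1.93 and 10.3 CPM in placebo fish 1 to 4, and its lowest liver held 1 read. Both genes had the same 4 livers highest, alendronate fish 1, 2 and 5 and placebo fish 4, and both were lowest in placebo fish 1.

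The pattern was also carried by genes outside the set. Among the abundant liver-enriched genes, 4 had an SD over 1 and an r over 0.9 with the mean of the group, at liver levels of 2807, 1090, 602.3 and 360.1 CPM. Of the 9733 other genes at the members' liver levels, 116 did so, or 1.19%. None of the other 245 members did. These correlations are across 9 livers and describe likeness to a group chosen from the same livers.

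In other tissues the 16 genes followed the fish unevenly. In spleen their summed level was 141, 7.38, 74.1, 121 and 37.6 CPM in alendronate fish 1 to 5, against 6.47, 19.8 and 67.8 CPM in placebo fish 2 to 4. Alendronate fish 3, with a low liver, had 113% of its own liver level in spleen, and alendronate fish 4 had 23.0%, against 0.559% in alendronate fish 2. Heart libraries held between 1.61 and 4.67 CPM, apart from 23.1 CPM in alendronate fish 4. Kidney libraries held 3.25 to 21.9 CPM and muscle libraries 2.47 to 15.0 CPM. Relative to the summed level in the own liver, alendronate fish 3 had 24.3% in kidney, 22.8% in muscle and 4.44% in heart. Placebo fish 1, also with a low liver, had 25.1% in muscle and 12.3% in heart. In the other fish these percentages ran from 0.378% to 2.76% in kidney, 0.22% to 3.17% in muscle and 0.152% to 4.36% in heart. The choice of members used means over fish, so it did not require a higher level in the liver of each fish.

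**Figure D4:**
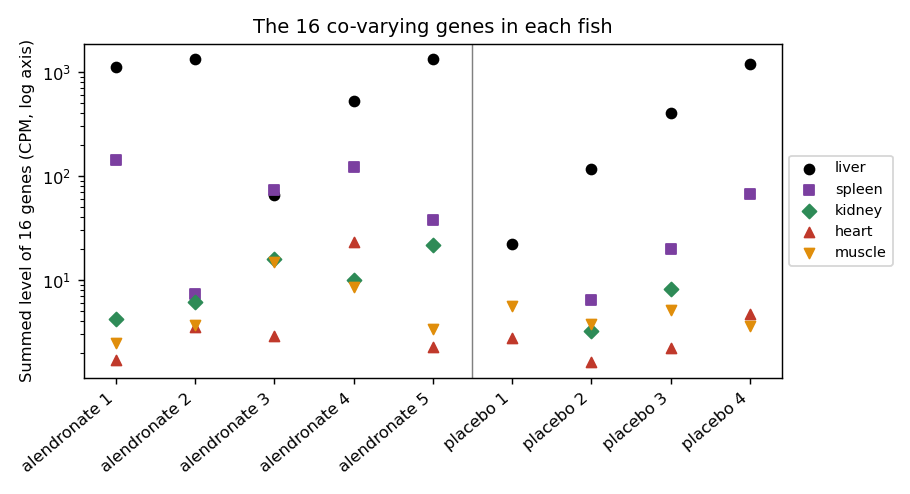
Summed level of the 16 co-varying genes in CPM on a log axis, with a column of points for each fish and a symbol for each tissue. Alendronate fish stand at the left of the line and placebo fish at the right. Liver levels run from 22.4 to 1330 CPM, and in alendronate fish 3 the spleen lies just above the liver.

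A further 3 members were held mainly by 1 fish, with over 50% of their summed level over the 9 livers in alendronate fish 2. Such genes were 1.15% of the members and 0.164% of the other genes at those levels. The rule averages over fish, so a gene can enter the set through 1 high liver. These shares were not tested against each other and are no evidence that members differ in this respect. The extreme case had 159 CPM in alendronate fish 2, or 1627 reads, and 0.0952 to 0.239 CPM in the other 4 treated livers, against 0.0850 to 2.25 CPM in the placebo livers. The liver of alendronate fish 2 held 97.7% of its summed level. This gene stood at no more than 0.552 CPM in the other tissues of that fish. The second had 808 CPM in alendronate fish 2, 24.6 to 285 CPM in the other treated livers and 14.8 to 86.0 CPM in the placebo livers. The third had 52.7 CPM in alendronate fish 2, 3.05 to 13.1 CPM in the other treated livers and 4.96 to 7.39 CPM in the placebo livers. The liver of alendronate fish 2 held 56.6% of the second gene and 51.5% of the third, so both lie near the limit. These shares depend on scaling and were not computed from library totals. In that liver the other genes at those levels lay at -0.0108 from the arm mean on the log2 scale with TMM, and at -0.397 with totals.

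In spleen the members were carried by single libraries. They made up 0.186% of counts in alendronate fish 1 and 0.123% in alendronate fish 3, against 0.0354% to 0.0785% in the other 3 treated spleens and 0.0583% to 0.0680% in the placebo spleens. The level of a member in spleen was set against its level in the liver of the same fish, for members at 1 CPM or more in that liver. In alendronate fish 1 the median was 8.56%, and 80% of members lay between 4.77% and 16.8%. The abundant liver-enriched genes had a median of 7.87% in that spleen. In alendronate fish 3 the medians were 2.87% for members and 2.12% for the abundant genes.

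The other spleens had lower and more scattered values. Alendronate fish 2, 4 and 5 had medians of 0.456%, 0.846% and 1.36%, against 1.01%, 1.34% and 1.00% in placebo fish 2, 3 and 4. In placebo fish 2, for example, the middle 80% of members ran from 0.0480% to 5.64%. Across members, log2 levels in the spleen of alendronate fish 1 correlated with its own liver at r = 0.908, and with the livers of other fish at r between 0.611 and 0.826. In alendronate fish 5 the own liver was also the best match, at r = 0.626 against 0.408 to 0.570. In the other 6 spleens a liver of another fish correlated better. Among the 9 livers the own liver ranked 8, 8 and 6 in alendronate fish 2, 3 and 4, and 3, 2 and 2 in placebo fish 2, 3 and 4. In alendronate fish 3 the own liver had r = 0.609, against 0.503 to 0.793 for the others. For alendronate fish 3 and 4 and placebo fish 2, 3 and 4, the best match was the liver of alendronate fish 1. For alendronate fish 2 it was the liver of alendronate fish 5. The liver of alendronate fish 1 was thus the best match of its own spleen and of most others. These correlations are across genes and are descriptions.

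**Figure D5:**
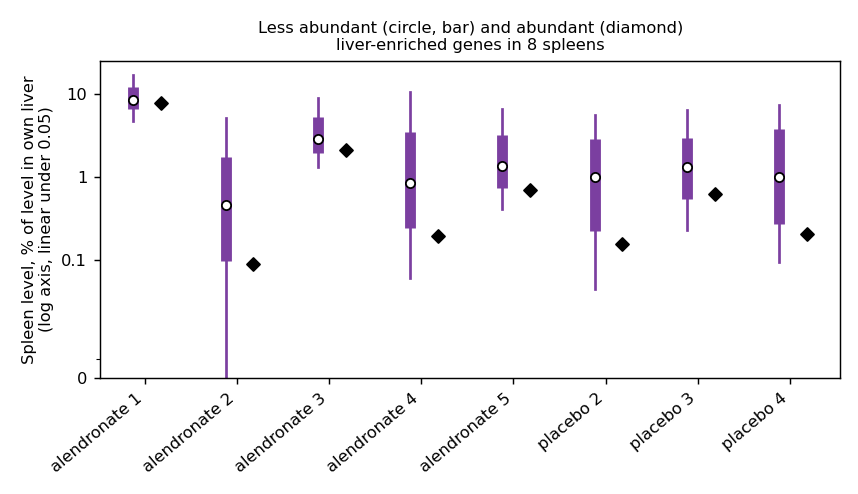
For each of the 8 spleens, levels of the less abundant liver-enriched genes as a percentage of the level in the liver of the same fish, on a log axis that is linear under 0.05%. Circles are medians, thick bars the middle 50% and thin bars the middle 80% of genes, and diamonds are medians of the abundant liver-enriched genes. In alendronate fish 1 the circle and the diamond lie close together at 8.56% and 7.87%.

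Between arms, 0 of the 215 members past the filter in spleen were called in edgeR, beside 0% of all 17545 genes. At an unadjusted p under 0.05 there were 10 members, or 4.65%, all above placebo, beside 1.62% of all genes and 0.399% above. DESeq2 and limma-voom called 0 members. The median fitted log2 change of the 215 was 1.05, with a median standard error of 0.887, beside 0.02 over all genes. Members can pass this filter through the 2 spleens where they are high, so neither the median nor this share is evidence of a change. Without the spleens of alendronate fish 1 and 3 the median was -0.07 over 182 members. In that fit 54.9% of members and 51.8% of all genes had a change below 0. There 5 members had an unadjusted p under 0.05, or 2.75% beside 6.58% of all genes, 1 above placebo and 4 below. Leaving out only the spleen of alendronate fish 1 gave 4 such members, or 2.05% beside 2.51% of all genes, and leaving out only that of alendronate fish 3 gave 3, or 1.54% beside 1.75%. Leaving out only that of alendronate fish 2 gave 51, or 23.6% beside 2.61%, and only that of alendronate fish 4 gave 29, or 13.6% beside 1.84%.

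Kidney, heart and muscle showed no called difference of a member. Members made up 0.0827% to 0.124% of counts in treated kidneys and 0.0714% to 0.101% in placebo kidneys. Hearts held at most 0.0416% and muscles at most 0.0209%. In kidney 188 members passed the filter and 0 were called in edgeR, beside 0% of all 19282 genes. At an unadjusted p under 0.05 there were 11, or 5.85%, beside 1.70% of all genes. Of these 11, 9 had a fitted change above 0 and 2 below, and that split was not computed over all genes. Fitted changes were below 0 for 33.5% of the 188 members, beside 43.7% of all genes tested in kidney. In heart 102 passed and 0 were called, beside 0% of 15975 genes, with 6 at an unadjusted p under 0.05, or 5.88% beside 2.62%. In muscle 91 passed and 0 were called, beside 0.00641% of 15610 genes, with 8 at an unadjusted p under 0.05, or 8.79% beside 7.41%. DESeq2 and limma-voom called 0 members in each of these tissues. As in spleen, members can pass the filter through libraries where they are high, so these shares are not evidence of a change. Over 7 kidneys the median percentage of the own-liver level ran from 1.42% to 2.62%. The spleens other than those of alendronate fish 1 and 3 all had lower medians than any kidney. Over 9 hearts this median percentage ran from 0.325% to 0.567%. In muscle it was lowest in alendronate fish 5, at 0.210%, and 0.735% in alendronate fish 1, with only alendronate fish 3 above that. The kidney contrast rests on 2 placebo libraries.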

How the data were processed

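The authors deposited raw read counts, whole numbers for each gene ID, in 42 columns that were matched to samples by library name. The submitters' processing notes name Trim Galore 0.6.10, STAR 2.7.10b and SAMtools 1.13 among the tools, without roles. Build, annotation, counting program and strand setting were not given in the sources used, so counts of overlapping genes and near-identical copies are uncertain. The table held 0 rows without a gene and 0 columns of no sample.

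Each tissue was fitted on its own in R 4.3.3 with edgeR 4.0.16 (filterByExpr, TMM, robust quasi-likelihood F test, arm as the single covariate). Benjamini-Hochberg adjustment of the two-sided p-values covered all genes of the tissue, and genes under 0.05 count as called. The F test gives no standard error. Each printed one is the size of the fitted change divided by the square root of F, and intervals use it with a t quantile. DESeq2 1.42.0 and limma-voom (limma 3.58.1) were alternatives, with RLE size factors, no filter, a replicate block, all libraries in one fit, and each library left out in turn. Printed CPM use TMM over all 42 libraries, while the fitted changes use TMM within the tissue. The clustering used average linkage on 1 minus Pearson's r, at a height of 0.4. The edgeR fit was tested on simulated data.

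Members and lists were chosen with earlier results of these data known. The 15 gene lists written for this work matched 0 IDs, so none was tested. With no names, the rule for named genes took the 2 members above and the 2 below placebo with the smallest p in liver. Total counts per library limit precision for low genes outside liver. Reads carry no molecular identifiers, and the Wilson intervals of shares treat each read as a separate count. Those intervals cover counting error only, while standard errors and intervals of fitted changes include the spread between fish.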

Additional observations from a re-analysis of the deposited data

Results flagged for a closer look

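Over 30 sets of 4 or 5 libraries, 3 had a highest library set apart by a wide gap (Dixon's test), where chance gives about 1 in 20, or 1.5. In the kidney of alendronate fish 5 the less abundant liver-enriched genes made up 0.124% of counts, and the next treated kidney held 0.0902%. In the same kidney their median level was 2.62% of that in the fish's own liver, and the next treated kidney had 1.98%. These values come from 1 library and are not separate events. In the heart of alendronate fish 4 the 16 co-varying genes summed to 23.1 CPM, over 693 reads, and the next treated heart had 3.57 CPM.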

How the results depend on the processing

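The count of called members was 0 in every fit run: 15 alternatives each in liver, spleen, heart and muscle and 13 in kidney. The median log2 change in liver ran from -0.15 to 0.04 when single livers were left out. In liver, 7.31% of members had an unadjusted p under 0.05 beside 4.37% of all genes. DESeq2 gave 10.4% beside 3.72%, while the fit of all libraries together turned the relation, with 3.07% beside 8.14%. For every tissue, that joint fit pooled the spread over tissues and treated libraries of the same fish as separate. In spleen limma-voom gave 2 members, or 0.930% beside 1.48%, and the fit of all libraries together 92, or 35.2% beside 4.05%. When single libraries were left out, the number of members at an unadjusted p under 0.05 ran from 3 to 17 in kidney, from 2 to 6 in heart and from 6 to 10 in muscle. It moved by over 1.5 times in kidney without alendronate fish 1 (17, or 9.14% beside 5.17% of all genes), alendronate fish 3 (6, or 3.28% beside 0.974%) or placebo fish 2 (3, or 1.40% beside 0.809%). In heart it moved likewise without alendronate fish 1, 2 or 3 or placebo fish 1 (3 each, or 2.78% to 3.06% of members beside 2.20% to 3.41% of all genes) or placebo fish 4 (2, or 1.85% beside 3.17%). Kidney fits without 1 placebo library assume that the remaining one varies like the treated kidneys.

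The set itself depends on scaling and on the ratio asked for. Without TMM factors the rule gave 129 genes, 90 of them members, so that 34.5% of the 261 members stayed. The 2 settings differ only in these factors, which were 0.364 to 0.687 in liver and 1.60 to 1.91 in kidney. How much came from the ratio and how much from the limits on liver level was not tested. A ratio of 5 gave 440 genes and a ratio of 20 gave 155. With RLE size factors, medians in place of means, or without the spleens of alendronate fish 1 and 3, it gave 266, 263 and 265 genes.

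The replicate block treats equal numbers in the 2 arms as pairs, although they mark different fish. With it 0 members were called in liver and the median change was -0.08. There 17 had an unadjusted p under 0.05, or 6.54% beside 2.84% of all genes. It changed no call of a member in another tissue. In kidney, with 2 such pairs, it gave 18 members at an unadjusted p under 0.05, or 9.57% beside 8.15% of all genes, against 11, or 5.85% beside 1.70%, without it. After removal of arm means, same-numbered libraries correlated at -0.313 to 0.131 in liver and at -0.172 to 0.377 in the other tissues. Every pair was over 0.1 in no tissue, so the numbers are not read as pairs. The spleen fit without alendronate fish 1 and 3, the alternative clusterings and the scalings of the liver deviations were chosen after seeing the data. Outside liver, low counts limit what could be detected.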

Other observations

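Besides the 16 co-varying genes, 2 smaller clusters had a median SD near 0.8. The first held 13 members with a median SD of 0.793. Its median deviation from the arm mean was 0.551 and 0.937 in alendronate fish 1 and 5, -0.687 and -0.672 in alendronate fish 2 and 4, and -0.0229 in alendronate fish 3. In placebo fish 1 to 4 it was 0.168, 0.770, -0.156 and -0.887. The second held 11 members with a median SD of 0.810, at -0.756, 1.08, -0.591, 0.470 and -0.319 in alendronate fish 1 to 5 and 0.234, 0.203, -0.750 and 0.196 in placebo fish 1 to 4. The order of the livers thus differed between the clusters.

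The 2 largest clusters held 59 and 57 members and were alike in their lowest livers. Alendronate fish 1 lay at -0.576 in the first and -0.811 in the second, and placebo fish 4 at -0.488 and -0.426. They differed in alendronate fish 5, at -0.380 in the first and 0.268 in the second. All values are medians on the log2 scale, and the clusters were chosen from these livers, so no test was made.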
